A study of Mus musculus with 24 samples.

Results

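The genes described here are the mouse cytochromes P450 of families 1, 2 and 3, measured by RNA sequencing in the liver of mice with and without one subtype of hypothalamic neuron. The members were all protein-coding genes of the deposited tables whose name begins with Cyp1, Cyp2 or Cyp3 followed by a letter, with at least 10 reads over the 24 libraries. There were 53 such genes among 27802 genes: 3 of family 1, 41 of family 2 and 9 of family 3. The largest subfamilies were Cyp2c with 13 members, Cyp2d with 9, Cyp3a with 9, Cyp2a with 4 and Cyp2j with 4. Of the 53, 52 had enough reads to be tested; Cyp2d34, with 29 reads in all, did not. Cyp2b19, with 9 reads, fell under the minimum, and 12 pseudogene rows were not members.

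Cytochromes P450 are haem-containing monooxygenases. Those of families 1 to 3 sit in the endoplasmic reticulum of hepatocytes, take electrons from P450 oxidoreductase, and oxidise drugs, plant compounds, steroids and fatty acids. Their genes are driven by HNF4A and by ligand-responsive factors (the aryl hydrocarbon receptor for family 1, CAR and PXR for the Cyp2b, Cyp2c and Cyp3a subfamilies), and in rodents many differ between the sexes through the pattern of growth hormone secretion. Several, such as Cyp2e1 and Cyp1a2, are made mainly by hepatocytes around the central vein.

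In the study, an adeno-associated virus with a Caspase3 that Cre activates was injected into the arcuate nucleus of adult mice expressing Cre through the gene of the angiotensin receptor AT1R, so that AT1R-positive AgRP neurons die. The sources used here do not say what the control mice received. Mice lived after surgery at 22 °C, where they must spend energy on heat, or at 30 °C, near their thermoneutral range, and liver was frozen at 2 weeks. All had free access to the same diet.

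The ablated groups at 22 °C were 3 females and 3 males, set against 3 control females and 3 control males, all of the cross Ai39 x BAC-AT1A-Cre with Halo+/- (a Cre-dependent halorhodopsin). At 30 °C there were 3 ablated females and 3 ablated males, set against 4 control females and 2 control males. All ablated mice were Cre+. Among controls, 22 °C male 1, both 30 °C males and 30 °C female 4 were Cre+ and the others Cre-. At 30 °C the lines were mixed: ablated male 2 and ablated female 3 were Ai9 x BAC-AT1A-Cre, ablated male 3, control male 1 and control female 3 were BAC-AT1A-Cre, and the rest were Ai39 x BAC-AT1A-Cre. The ablation was in the brain, so liver RNA gives no check of it.

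Libraries held 21691653 to 34851108 reads in genes, of which the P450 genes took 1.05 to 2.35%. Mitochondrial genes took 7.53 to 37.3% of reads. Library 30 °C control male 1 had 13601 genes with 10 or more reads, fewer than the 14898 to 16682 of the other libraries. Hepatocyte markers (Alb, Apoa1, Ttr, Tat and Cps1) were high in all libraries, with summed levels of 61680 to 99390 CPM (read counts scaled to the size of the library), whereas the 4 markers of Kupffer cells and macrophages summed to 44.6 to 223 CPM.

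Scaled to the authors' gene length, the pool of family 1 to 3 transcripts was led by Cyp2e1, the enzyme that oxidises ethanol and acetaminophen. Levels between genes are compared in FPKM (fragments scaled to gene length and library size, the authors' values). This length exceeded the longest coding transcript in GENCODE for some members, such as Cyp3a11 (5093 against 2344 bases) and Cyp2d9 (2658 against 1712 bases). For Cyp2d10 the 2 were equal (1648 bases). The order between genes depends in part on these lengths. Cyp2e1 had a median of 1658 FPKM over the 24 libraries, with a range of 724 to 2506, and made up 22.1% ± 4.80 (SD, n = 24) of the summed FPKM of all members. The order below it differed between the sexes, so it is given by sex. In the 13 females, the next medians were those of Cyp2a4 (624 FPKM), Cyp2a5 (553 FPKM), Cyp2d10 (531 FPKM), Cyp2d26 (505 FPKM), Cyp3a25 (418 FPKM), Cyp2c37 (395 FPKM), Cyp2c69 (366 FPKM), Cyp2d13 (363 FPKM) and Cyp1a2 (301 FPKM). In the 11 males they were those of Cyp2d10 (552 FPKM), Cyp2d9 (481 FPKM), Cyp3a25 (446 FPKM), Cyp2d26 (412 FPKM), Cyp2d13 (409 FPKM), Cyp1a2 (341 FPKM), Cyp2a5 (275 FPKM), Cyp2c23 (271 FPKM) and Cyp2f2 (223 FPKM). The ranges of neighbours among these 9 genes overlapped within each sex. Cyp2a4 ran from 423 to 1386 FPKM in females and from 0 to 22.5 FPKM in males, and Cyp2d9 from 3.36 to 41.4 FPKM in females and from 196 to 739 FPKM in males.

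At the other end, Cyp1a1, the classic target of the aryl hydrocarbon receptor, had a median of 0.264 FPKM and never exceeded 0.790 FPKM. Cyp1b1 had a median of 0.130 FPKM, and Cyp2b10, the classic CAR target, one of 0.686 FPKM. By median these 3 ranked 47, 49 and 42 of 53, while Cyp3a11, a PXR target, had 104 FPKM. Over both sexes together, 13 members had a median under 1 FPKM. They include Cyp3a16 (0.675 FPKM), whose median was 18.1 FPKM in females and 0 FPKM in males. Cyp2r1, a vitamin D 25-hydroxylase, had a median of 2.64 FPKM.

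The summed FPKM of the 53 genes averaged 7084 ± 1270 in ablated females at 22 °C (SD, n = 3), against 7908 ± 824 in control females (SD, n = 3). In males at 22 °C it averaged 5146 ± 897 in ablated mice and 6645 ± 920 in controls (SD, n = 3 each). At 30 °C the female sums were 8758 ± 948 with ablation and 9173 ± 1556 without (SD, n = 3 and n = 4). The male sums there were 7404 ± 510 with ablation and 6986 ± 1306 without (SD, n = 3 and n = 2). These sums overlapped between ablated and control mice in each sex and at each temperature. Subfamilies divided the pool differently in the sexes: among ablated mice at 22 °C, Cyp2a took 24.4% ± 2.69 of it in females and 8.38% ± 1.51 in males (SD, n = 3 each). Cyp2d took 19.6% ± 1.32 of it in the same females and 29.9% ± 1.92 in the same males (SD, n = 3 each), and controls differed between the sexes in the same directions.

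**Figure D1:**
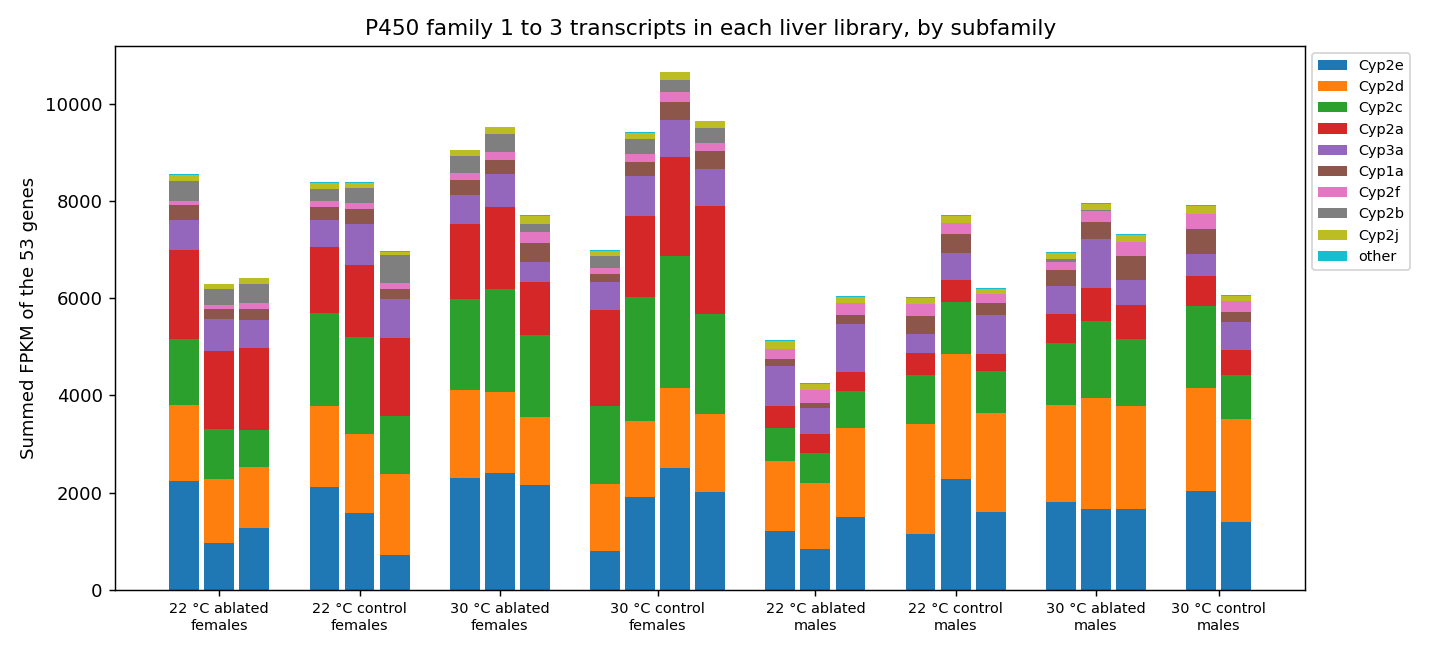
Summed FPKM of the 53 P450 genes in each of the 24 liver libraries (one bar per mouse, from 0, coloured by subfamily), grouped by sex, temperature and ablation. The sums run from 4257 FPKM in an ablated male at 22 °C to 10650 FPKM in a control female at 30 °C, and the Cyp2b share (grey) is visible in female bars.

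More P450 genes differed between the sexes than with temperature or with ablation. In control mice, 20 of 52 members were called (adjusted p under 0.05), 15 higher and 5 lower in females than in males. Of all tested genes 2.81% were called, 1.58% higher and 1.23% lower. In ablated mice 21 members were called, 16 higher and 5 lower in females, against 2.24% of all genes, 1.21% higher and 1.03% lower. The comparison in ablated mice was added after the data had been seen. The same 19 genes were called in both, all in the same direction, which is 95% of the calls in controls and 90.5% of those in ablated mice. In controls, the values of 17 members did not overlap between all 7 females and all 5 males, against 1.95% of all genes.

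The female-high genes lay in 3 clusters. In the Cyp3a cluster of chromosome 5, Cyp3a16, Cyp3a41b, Cyp3a41a and Cyp3a44, which are neighbours between Cyp3a57 and Cyp3a11, were called, whereas Cyp3a11, Cyp3a25 and Cyp3a59 on one side and Cyp3a13, apart from the cluster, were not. Cyp3a16 averaged 41.5 ± 30.8 CPM in control females (SD, n = 7) and had 0 reads in the 5 control males. Taking 3 reads over those males as a floor, that is at least 1722-fold higher in females (adjusted p = 0.00993). Cyp3a41a, also without a read in control males, was at least 1148-fold higher (adjusted p = 0.0149). Cyp3a44 averaged 79.1 ± 51.0 CPM in control females and 0.0690 ± 0.154 CPM in control males (SD, n = 7 and n = 5), and its log2 fold change was 11.83 ± 1.71 (SE; adjusted p = 0.000672). Without 30 °C control male 1, Cyp3a16 (adjusted p = 0.0773), Cyp3a41a (adjusted p = 0.0849) and Cyp2a22 (adjusted p = 0.0781) were not called.

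Most reads of Cyp3a41a and Cyp3a41b cannot be assigned to one of the pair with certainty. By GENCODE transcripts, 90.8% of the 100-base windows of Cyp3a41a and 88.2% of those of Cyp3a41b occur in another gene, mostly in each other. The same held in part for Cyp2c40 (44.1%), Cyp2c69 (36.3%), Cyp2c67 (23.7%) and Cyp2c68 (19.8%), whose values are uncertain to that extent. Cyp2a4 shared 11.2% and Cyp2a5 14.4% of windows, each most often with the other. Cyp2a4 also overlaps a gene annotated on the other strand. For 21 of the 52 members with a GENCODE transcript no window was shared. Cyp2d13 had no such transcript, so its windows could not be counted.

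In the Cyp2a, Cyp2b and Cyp2g cluster of chromosome 7, the female-high members were Cyp2b13, Cyp2b9, Cyp2a4, Cyp2g1, Cyp2a5 and Cyp2a22. Cyp2a4, a testosterone 15-alpha-hydroxylase, had 1275, 1058 and 822 CPM in control females at 22 °C and 2416, 1335, 2168 and 1784 CPM in control females at 30 °C, against 2.29, 0.148 and 0 CPM in control males at 22 °C and 3.83 and 10.7 CPM in control males at 30 °C. Every female was above every male. The log2 fold change was 9.15 ± 1.05 (SE, adjusted p = 4.77e-05). Cyp2a5, the coumarin hydroxylase that differs from Cyp2a4 by few residues, averaged 1135 ± 329 CPM in control females and 580 ± 155 CPM in control males (SD, n = 7 and n = 5), and the sexes overlapped. Its log2 fold change was 0.93 ± 0.19 (SE, adjusted p = 0.00402).

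The 2 genes lie at chr7:26006594-26014513 (Cyp2a4) and chr7:26534730-26542973 (Cyp2a5) in the deposited GRCm39 positions, both on the plus strand. Their promoters are printed because the 2 sex differences are so unlike while the sequences are nearly the same. RefSeq (GRCm38.p6) gives 300 bases for each, 250 before and 50 after the start, at chr7:26306942-26307241 for Cyp2a4 and chr7:26835089-26835388 for Cyp2a5. They match in 294 of 301 aligned columns (97.7%), with 5 substitutions. Capitals mark bases that differ, 5′ to 3′ on the gene's strand.
Cyp2a4: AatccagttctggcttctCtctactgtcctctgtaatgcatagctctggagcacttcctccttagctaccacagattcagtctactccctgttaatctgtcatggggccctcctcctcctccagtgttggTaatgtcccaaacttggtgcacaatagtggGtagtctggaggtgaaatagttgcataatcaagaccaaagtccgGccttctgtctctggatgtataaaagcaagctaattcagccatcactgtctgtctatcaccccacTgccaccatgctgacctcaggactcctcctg
Cyp2a5: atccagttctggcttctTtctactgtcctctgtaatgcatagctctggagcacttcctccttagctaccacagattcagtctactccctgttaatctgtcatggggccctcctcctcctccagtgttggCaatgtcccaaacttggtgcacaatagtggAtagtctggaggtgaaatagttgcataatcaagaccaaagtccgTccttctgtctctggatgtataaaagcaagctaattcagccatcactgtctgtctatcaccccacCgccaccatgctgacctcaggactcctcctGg
The 300 bases thus carried few differences beside log2 fold changes of 9.15 and 0.93, and what lies outside the window was not analysed here.

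Cyp2b9 and Cyp2b13, P450 enzymes typical of female mouse liver, were likewise far higher in females. Cyp2b9 averaged 358 ± 59.0 CPM in control females and 4.56 ± 9.07 CPM in control males (SD, n = 7 and n = 5), and its log2 fold change was 8.37 ± 0.95 (SE, adjusted p = 4.69e-05). Cyp2b13 averaged 253 ± 162 CPM in control females and 0.620 ± 0.905 CPM in control males, and its log2 fold change was 8.59 ± 1.19 (SE, adjusted p = 0.000336). Cyp2b10 averaged 4.48 ± 3.32 CPM in control females and 0.552 ± 0.593 CPM in control males and was not called (adjusted p = 0.0966).

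In the Cyp2c subfamily of chromosome 19, whose enzymes oxidise arachidonic acid and other lipids, 5 of 13 members were higher in control females and 1 was lower. Cyp2c69 (log2 fold change 7.90 ± 0.86) and Cyp2c40 (5.75 ± 0.75) differed most, followed by Cyp2c39 (3.34 ± 0.53), Cyp2c38 (2.12 ± 0.27) and Cyp2c68 (1.43 ± 0.18), all with SE and called. Cyp2c67, beside Cyp2c68, ran the other way: 135 ± 34.2 CPM in control females and 289 ± 132 CPM in control males (SD, n = 7 and n = 5), log2 fold change -1.15 ± 0.23 (SE, adjusted p = 0.00411). Without 30 °C control male 1, which had 500 CPM, Cyp2c67 was not called (adjusted p = 0.138).

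The promoters of Cyp2c40 and Cyp2c67 are printed because these 2 members of the cluster differed in opposite directions between the sexes while sharing the same short motifs. A script searched the promoters of the 45 members that RefSeq lists, on both strands, for CAAAGTCCA, which HNF4A prefers, and for ATCAAT, the core bound by HNF6 and CUX2. CAAAGTCCA was in 9 of those 45 promoters and in 0.477% of all 27025 promoters of this length. ATCAAT was in 12 of the 45, or 26.7%, and in 7.76% of all promoters. Members of a cluster share sequence by descent, so they are not separate instances. Capitals mark both motifs (ATCAAT reads ATTGAT on the other strand), in windows at chr19:39812765-39813064 for Cyp2c40 and chr19:39648993-39649292 for Cyp2c67, both on the minus strand of GRCm38.p6.
Cyp2c40: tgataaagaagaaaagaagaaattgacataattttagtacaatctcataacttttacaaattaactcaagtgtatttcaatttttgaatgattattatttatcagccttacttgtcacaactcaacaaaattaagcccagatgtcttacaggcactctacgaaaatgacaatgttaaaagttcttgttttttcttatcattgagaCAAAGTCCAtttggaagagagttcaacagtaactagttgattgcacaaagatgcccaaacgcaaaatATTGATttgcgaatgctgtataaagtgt
Cyp2c67: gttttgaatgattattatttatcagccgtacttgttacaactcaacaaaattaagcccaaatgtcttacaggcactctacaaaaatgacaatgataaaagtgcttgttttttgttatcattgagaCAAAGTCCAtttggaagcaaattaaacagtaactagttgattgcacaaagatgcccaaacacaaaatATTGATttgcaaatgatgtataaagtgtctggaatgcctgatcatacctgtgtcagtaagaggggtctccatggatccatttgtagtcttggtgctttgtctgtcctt
Each motif occurred once in each window. TTCNNNGAA, the element bound by STAT5, was in 0 of the 45 members' promoters and in 8.47% of all promoters, which says only that these letters are not in these windows.

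Fewer members were higher in males. Cyp2d9, the testosterone 16-alpha-hydroxylase of male mouse liver, had 45.6, 28.3 and 34.2 CPM in control females at 22 °C and 8.95, 24.7, 67.1 and 35.6 CPM in control females at 30 °C, against 1539, 2030 and 1286 CPM in control males at 22 °C and 1462 and 1086 CPM in control males at 30 °C. All females were below all males. The log2 fold change was -5.36 ± 0.53 (SE, adjusted p = 9.79e-06). Cyp2u1, a fatty acid hydroxylase, was lower in females as well (log2 fold change -2.57 ± 0.28, SE, adjusted p = 9.18e-06), and so were Cyp2f2 (-0.75 ± 0.17, SE, adjusted p = 0.00641), which activates naphthalene and marks periportal hepatocytes, and Cyp2j6 (-0.44 ± 0.12, SE, adjusted p = 0.0397). Cyp2f2 was not called without 30 °C control male 1 (adjusted p = 0.110), and Cyp2j6 was called in 3 of 12 fits that each left out 1 control library, those without 22 °C control female 1, 30 °C control female 3 or 30 °C control male 2 (adjusted p up to 0.385 in the others). In controls, 1 of 7 females and 3 of 5 males were Cre+. With a term for Cre, 16 members were called for sex, where 1.1% of all genes were, and Cyp2f2 (adjusted p = 0.218), Cyp2j6 (adjusted p = 0.186), Cyp3a41a (adjusted p = 0.0540) and Cyp2c67 (adjusted p = 0.0530) were not.

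Cyp2d9 was the 1 member of 8 tested in the Cyp2d cluster of chromosome 15 that was called for sex. Its neighbour Cyp2d10, at chr15:82287047-82291396 on the minus strand of GRCm39, ranged over 660 to 1046 CPM in control females, against 909 to 1216 CPM in control males, and was not called. The promoters of this pair are printed as a second case of close relatives, 1 called and 1 not: they match in 252 of 304 columns (82.9%), with 44 substitutions. The windows are chr15:82452127-82452426, plus strand, for Cyp2d9 and chr15:82407145-82407444, minus strand, for Cyp2d10 (GRCm38.p6), with differing bases in capitals.
Cyp2d9: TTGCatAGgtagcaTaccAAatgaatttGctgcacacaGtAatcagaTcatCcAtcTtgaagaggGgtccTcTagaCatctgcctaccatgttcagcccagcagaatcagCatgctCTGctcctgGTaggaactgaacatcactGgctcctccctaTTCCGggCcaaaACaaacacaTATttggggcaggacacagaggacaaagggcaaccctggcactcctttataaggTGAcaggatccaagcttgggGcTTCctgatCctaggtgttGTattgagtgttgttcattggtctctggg
Cyp2d10: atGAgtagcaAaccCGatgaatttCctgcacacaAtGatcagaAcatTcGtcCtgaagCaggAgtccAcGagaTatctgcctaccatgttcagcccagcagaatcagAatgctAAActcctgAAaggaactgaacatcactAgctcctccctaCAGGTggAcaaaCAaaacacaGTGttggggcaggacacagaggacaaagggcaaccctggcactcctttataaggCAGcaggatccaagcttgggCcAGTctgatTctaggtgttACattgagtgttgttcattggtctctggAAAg
Cyp2d10 shares 14.8% and Cyp2d9 9.86% of 100-base windows with another gene, and Cyp2d9 overlaps other annotated genes on both strands, so that a part of their reads cannot be assigned with certainty.

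Ablated mice also differed by sex. Cyp2d9 averaged 51.6 ± 35.5 CPM in ablated females and 997 ± 359 CPM in ablated males (SD, n = 6 each), log2 fold change -4.24 ± 0.51 (SE, adjusted p = 0.000112). Cyp2a4 averaged 1019 ± 150 CPM in ablated females and 14.6 ± 14.9 CPM in ablated males (SD, n = 6 each), log2 fold change 6.17 ± 0.78 (SE, adjusted p = 0.000185). Cyp2c37 (2.04 ± 0.38, SE, adjusted p = 0.00611) and Cyp2c23 (-0.64 ± 0.14, SE, adjusted p = 0.00906) were called in ablated mice and not in controls, and Cyp2j6 was called in controls and not in ablated mice. In ablated mice, Cyp2c67 was called in 7 of 12 fits that each left out 1 library (adjusted p up to 0.0534 in the others). A fit of the ablated groups alone did not call Cyp2c37 (adjusted p = 0.0514) or Cyp3a41a (adjusted p = 0.0962). A fit of the control groups alone did not call Cyp3a16 (adjusted p = 0.0782), Cyp2a22 (adjusted p = 0.0721) or Cyp2j6 (adjusted p = 0.144). Whether the sex difference itself changed with ablation was tested at each temperature, and no member was called at 22 °C or at 30 °C. 30 °C ablated female 3 had the lowest mitochondrial share and was of the cross Ai9 x BAC-AT1A-Cre. Its Cyp3a16 had 0 CPM, Cyp3a41a 0.616 CPM and Cyp2a22 21.9 CPM. The other 2 ablated females at 30 °C, both Ai39 x BAC-AT1A-Cre, had 48.6 and 50.7, 63.7 and 64.2, and 569 and 782 CPM. Cyp2a4 of ablated female 3, at 999 CPM, stood with theirs. Low Cyp3a16 (2.18 CPM) and Cyp3a41a (5.93 CPM) also occurred in 30 °C control female 1, whose mitochondrial share was 22.1%.

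**Figure D2:**
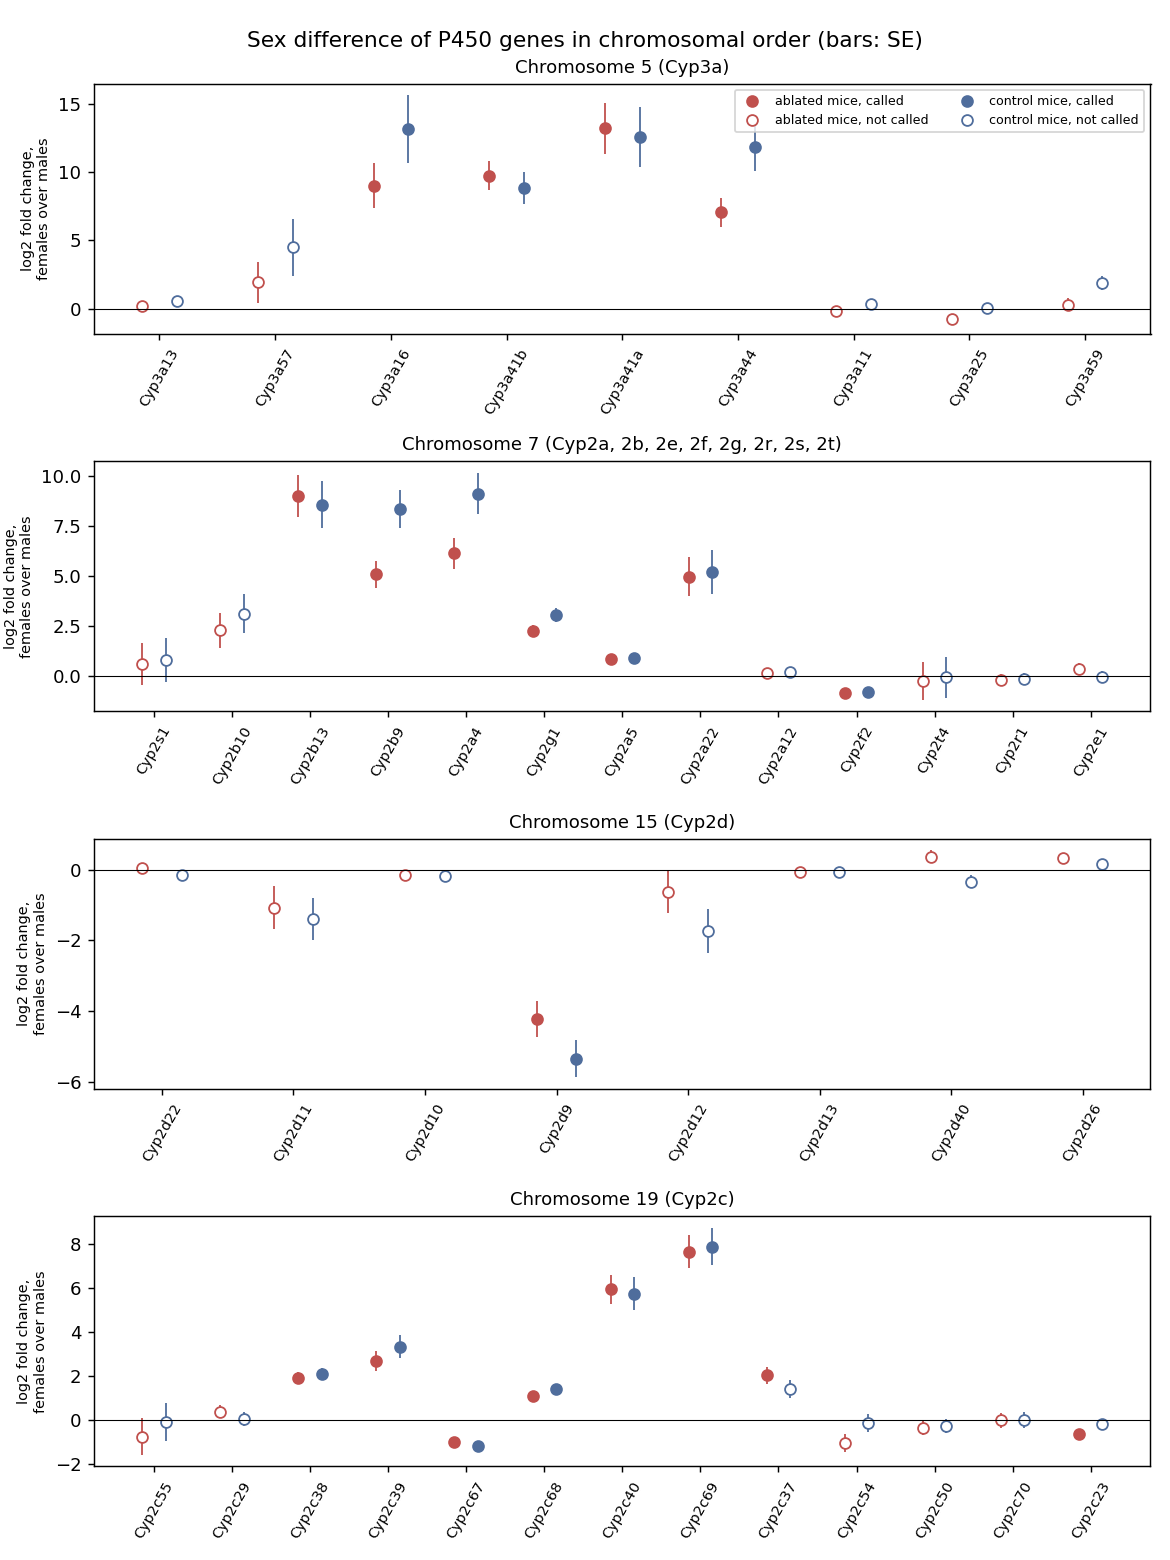
Log2 fold change, females over males, of the P450 genes on chromosomes 5, 7, 15 and 19 in their order along the chromosome, for ablated mice (red) and control mice (blue), with bars for the SE and filled points where the adjusted p was under 0.05. Runs of neighbouring genes differ between the sexes (Cyp3a16 to Cyp3a44, Cyp2b13 to Cyp2a22, Cyp2c38 to Cyp2c69) beside genes near 0, and Cyp2d9 is the one far below 0.

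Among 9 regulators of sex-dependent liver genes, 3 were called in controls: Cux2, a female-specific repressor, was higher in females (log2 fold change 7.84, adjusted p = 1.64e-05), as was Trim24 (1.70, adjusted p = 1.35e-05), and Bcl6, a male-biased repressor, was lower (-1.57, adjusted p = 0.00943). The same 3 were called in ablated mice, in the same directions. None of the 9 was called for ablation or temperature. Of the 13 nuclear receptors and other drivers of P450 genes, Ahr was higher in control females (0.65, adjusted p = 0.0162) and Nr1i3, the gene of CAR, in ablated females (0.87, adjusted p = 0.00952).

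After ablation at 22 °C, no P450 gene was called by edgeR's quasi-likelihood test (0.094% of all genes were). At an unadjusted p under 0.05 there were 14 members, 10 lower and 4 higher, where 4.16% of all genes were lower and 4.18% higher, and DESeq2 called 4 (Cyp2c54, Cyp2c37 and Cyp2d13 lower, Cyp2b9 higher), where it called 0.643% of all genes. The median log2 fold change over the 52 members was -0.15, and 0.02 over all genes. By subfamily, 9 of 13 Cyp2c and 7 of 8 Cyp2d members were below 0 (medians -0.45 and -0.36), while all 4 Cyp2a and 8 of 9 Cyp3a members were above it (medians 0.69 and 0.18). None of these members passed the test, and 52.8% of all genes were above 0. The members share mice and, in part, reads, so these counts describe the 12 livers.

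Within males at 22 °C, 9 members were lower in ablated than in control mice without overlap, against 7.37% of all genes, and 7 were higher, against 7.97%. Within females, 3 were lower without overlap, against 4.99% of all genes, and 1 was higher, against 6.91%. The 2 groups of males also differed in mitochondrial share, with 17.7 to 19.2% of reads in ablated males and 19.5 to 29.6% in control males, and in the summed level of 3 erythroid markers, with 122 to 126 CPM in ablated males and 236 to 459 CPM in control males, both without overlap. In females the mitochondrial share was 18.3 to 27.6% with ablation and 13.8 to 37.3% without, and the erythroid sum 294 to 694 CPM with ablation and 234 to 374 CPM without. The part of either in the P450 values was not tested.

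Cyp2c54, which oxidises arachidonic acid, had 103, 44.3 and 8.50 CPM in ablated females at 22 °C, against 263, 345 and 296 CPM in control females, and 124, 57.0 and 158 CPM in ablated males, against 285, 286 and 275 CPM in control males. All 6 ablated mice were below all 6 controls. The log2 fold change was -1.93 ± 0.42 (SE, adjusted p = 0.121 by edgeR, 0.000993 by DESeq2). With 22 °C ablated female 1 or 3 left out, edgeR called it, and with a term for Cre, which most controls lacked, the value was -1.76 ± 0.62 (SE, adjusted p = 1). At 30 °C ablated mice had 223 to 800 CPM and controls 184 to 456 CPM, and the groups overlapped.

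Cyp2d13 was the other member whose groups did not overlap at 22 °C, in a comparison where 0.559% of all genes were lower without overlap. It had 1233, 1160 and 1031 CPM in ablated females, against 1374, 1550 and 1983 CPM in control females, and 984, 775 and 1086 CPM in ablated males, against 1808, 1364 and 1437 CPM in control males. The values of ablated mice lay below those of controls in both sexes. Its log2 fold change was -0.61 ± 0.15 (SE, adjusted p = 0.110 by edgeR, 0.00306 by DESeq2). The gene overlaps a gene annotated on the other strand, and the sources used here do not say whether counting used the strand. Whether its reads could be shared with other genes was not checked, for lack of a GENCODE transcript.

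Cyp2c37 and Cyp2c50, which sit beside Cyp2c54, also had lower mean values and did not pass the test. Cyp2c37 had 736, 553 and 252 CPM in ablated females at 22 °C and 761, 694 and 614 CPM in control females, and 47.4, 20.6 and 97.6 CPM in ablated males and 279, 228 and 208 CPM in control males. The males did not overlap and the females did. The log2 fold change was -1.27 ± 0.38 (SE, adjusted p = 0.312), and the difference between the sexes in this effect was not called (log2 1.69 ± 0.75, SE, adjusted p = 0.783). Cyp2c50 had 231, 140 and 52.4 CPM in ablated females and 329, 296 and 191 CPM in control females, and 139, 115 and 182 CPM in ablated males and 300, 379 and 288 CPM in control males. Again the overlap was in females alone, and the difference on the log2 scale was -1.05 ± 0.31 (SE, adjusted p = 0.316). Up to 9.40% of the 100-base windows of these 3 genes occur in another gene.

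Of the pericentral P450 genes, Cyp1a2 had 640, 430 and 480 CPM in ablated females at 22 °C and 579, 620 and 399 CPM in control females, and 288, 205 and 393 CPM in ablated males and 747, 795 and 490 CPM in control males. Again the males did not overlap and the females did; it was not called (log2 fold change -0.62 ± 0.23, SE, adjusted p = 0.447). Cyp2e1 had 4951, 2090 and 2765 CPM in ablated females and 4720, 3463 and 1532 CPM in control females, and 2646, 1828 and 3331 CPM in ablated males and 2481, 5058 and 3460 CPM in control males, with overlap in both sexes (log2 fold change -0.24 ± 0.28, SE, adjusted p = 0.919). Cyp3a11 had 605, 323 and 650 CPM in ablated females and 662, 333 and 203 CPM in control females, and 699, 655 and 556 CPM in ablated males and 220, 471 and 318 CPM in control males. Ablated males were above control males without overlap, the females overlapped, and the gene was not called (log2 fold change 0.66 ± 0.27, SE, adjusted p = 0.508). Other members lay near 0: Cyp2c29 at 0.04 ± 0.29, Cyp2a12 at 0.02 ± 0.14, Cyp3a25 at 0.00 ± 0.23, Cyp2j5, an eicosanoid-forming enzyme, at 0.18 ± 0.20, and Cyp2d26 at -0.14 ± 0.14 (log2, SE).

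**Figure D3:**
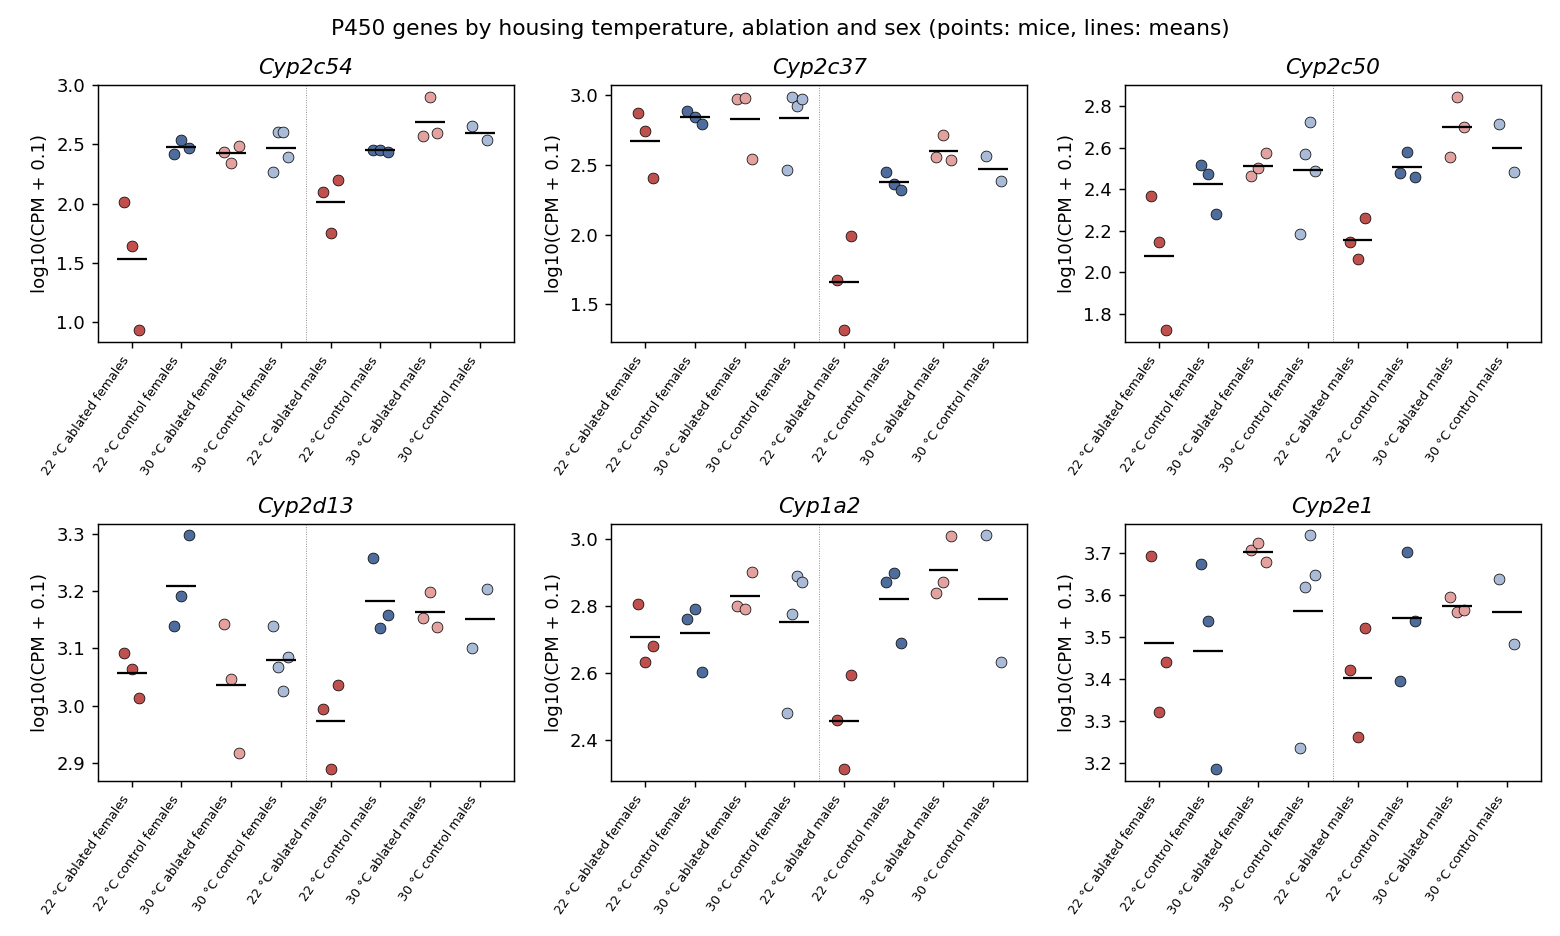
Level of 6 P450 genes in each mouse as log10(CPM + 0.1), with females left and males right of the dotted line; within each sex, ablated mice are left of controls at 22 °C and then at 30 °C, and horizontal lines are group means of the log values. For Cyp2c54 the ablated mice at 22 °C, at 8.50 to 158 CPM, lie below all other groups, whose lowest mouse had 184 CPM, and Cyp2e1 shows no such separation.

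Of the 15 members called higher in control females than in control males, 3 were higher in ablated than in control males at 22 °C without overlap. The other 12 overlapped, and 7.97% of all genes were higher in these males without overlap. The 15 were picked in part for low values in the same control males, which favours higher values in ablated males. This count is therefore a description and no test. Cyp2b9 had 3.33, 2.99 and 1.20 CPM in ablated males and 0.114, 0.197 and 0 CPM in control males, but 407, 373 and 389 CPM in ablated females and 285, 356 and 473 CPM in control females. Cyp2a4 had 11.4, 39.3 and 3.94 CPM in ablated males and 2.29, 0.148 and 0 CPM in control males. These low values are uncertain because of the windows shared with Cyp2a5. Cyp2a22 had 18.5, 18.5 and 10.5 CPM in ablated males and 5.03, 4.09 and 5.68 CPM in control males. The values of these males stayed far under those of females at 22 °C. Among the 12, Cyp2c40 had a lower mean in ablated males, with 1.48, 0.126 and 0.651 CPM against 5.83, 5.42 and 1.19 CPM in control males. Averaged over the sexes the log2 fold changes were 2.32 ± 0.82 for Cyp2b9 and 2.13 ± 0.69 for Cyp2a4 (SE, adjusted p = 0.445 and 0.389), and 1.19 ± 0.84 for Cyp2a22 (SE, adjusted p = 0.764), none called. The difference between the sexes was not called for Cyp2b9 or Cyp2a4 either (Cyp2b9 -4.51 ± 1.65, SE, adjusted p = 0.704; Cyp2a4 -4.55 ± 1.39, SE, adjusted p = 0.611). A fit of the 22 °C groups alone called Cyp2b9 for ablation (adjusted p = 0.00482), where 0.278% of all genes were called.

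At 30 °C, no member was called for ablation, where 0.0% of all genes were; 1 of 52 (Cyp3a13) had an unadjusted p under 0.05, against 6.96% of all genes, and DESeq2 called 0 (0.183% of all genes). The median of the members was 0.11, and that of all genes 0.05. Cyp3a13 had 79.4, 98.9 and 217 CPM in ablated females, against 76.4, 112, 95.4 and 94.7 CPM in control females, and 69.6, 90.0 and 71.8 CPM in ablated males, against 77.8 and 48.0 CPM in control males, with the groups overlapping (log2 fold change 0.39 ± 0.18, SE, adjusted p = 0.700). Cyp2d11 (log2 fold change -1.09 ± 0.61) and Cyp2c39 (0.77 ± 0.48), both with SE, came next by p.

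Averaged over both temperatures, ablation gave 0 calls (0.0445% of all genes), 4 at an unadjusted p under 0.05 against 8.99% of all genes, and 1 by DESeq2 (0.569% of all genes). The test of whether ablation acted differently at 22 °C and at 30 °C gave 0 calls (0.0% of all genes), 10 at an unadjusted p under 0.05 against 7.0% of all genes, and 0 by DESeq2 (0.0495% of all genes). For Cyp2c54 the difference between the 2 effects was -2.02 ± 0.60 on the log2 scale (SE, adjusted p = 0.533). For Cyp2d13 it was -0.56 ± 0.21 and for Cyp2d40 -0.72 ± 0.26 (SE, adjusted p = 0.626 for both). The effect at 22 °C was therefore not shown to differ from that at 30 °C. The tests of a sex difference in the effect gave 0 calls at both temperatures, 9 members at an unadjusted p under 0.05 at 22 °C (6.26% of all genes) and 1 at 30 °C (6.64%), and 0 by DESeq2 (0.242% of all genes at 22 °C and 0.173% at 30 °C).

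**Figure D4:**
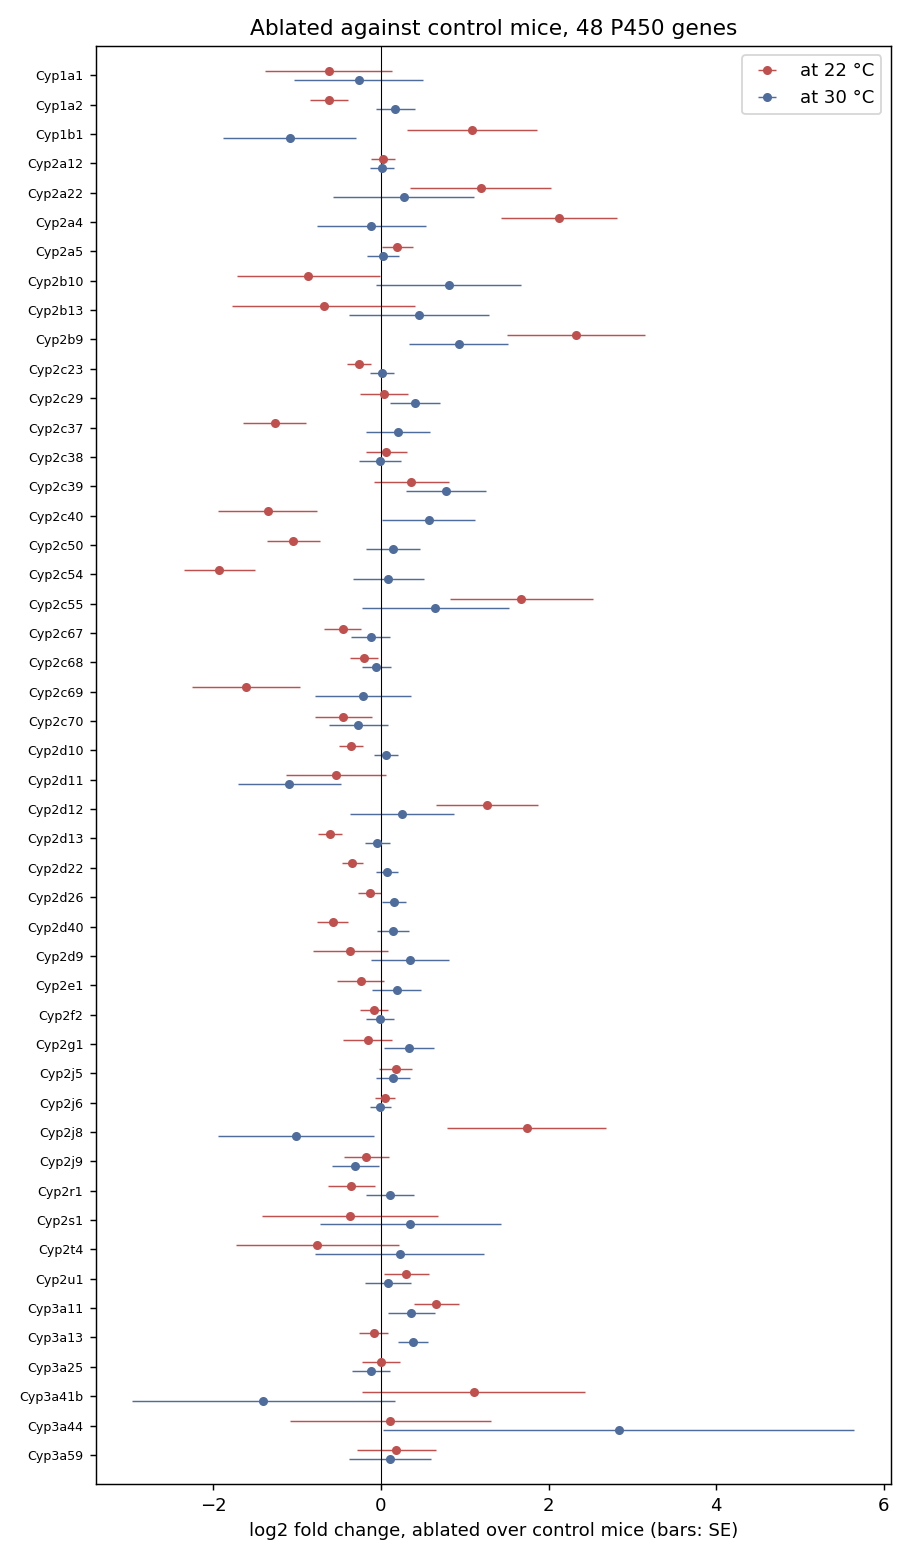
Log2 fold change, ablated over control mice, of 48 P450 genes at 22 °C (red) and at 30 °C (blue), averaged over the sexes, with bars for the SE; 4 genes whose SE exceeded 3 for lack of reads are not drawn. No point passed an adjusted p of 0.05; at 22 °C Cyp2c54 lies at -1.93 and Cyp2b9 at 2.32.

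Averaged over the sexes, 4 P450 genes had lower levels with housing at 22 °C than at 30 °C. Over ablated and control mice together, these were called, all lower at 22 °C, where 0.732% of all genes were called and 0.376% were called lower. The median log2 fold change of the members was -0.25, with 13 of 52 above 0, and that of all genes was 0.04. At an unadjusted p under 0.05 there were 17 members, all lower, against 6.66% of all genes that were lower. The 4 were Cyp2c23, Cyp2b9, Cyp3a13 and Cyp2c68. For Cyp2b9 the lower level lay in males, and females did not show it.

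Cyp2c23, which makes epoxides from arachidonic acid, had 343, 272 and 276 CPM in ablated females at 22 °C and 519, 580 and 562 CPM in ablated females at 30 °C. In control females it had 494, 503 and 309 CPM at 22 °C and 644, 678, 632 and 542 CPM at 30 °C. In ablated males it had 546, 594 and 510 CPM at 22 °C and 728, 704 and 737 CPM at 30 °C. In each of these 3 groups all mice at 22 °C were below all mice at 30 °C. Control males overlapped, with 522, 604 and 487 CPM at 22 °C and 800 and 460 CPM at 30 °C. The log2 fold change was -0.51 ± 0.10 (SE, adjusted p = 0.0202). It was called in 23 of 24 fits that left out 1 library, and not without 30 °C control male 1 (adjusted p = 0.160).

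Cyp2b9 had 3.33, 2.99 and 1.20 CPM in ablated males at 22 °C and 90.6, 36.0 and 3.08 CPM in ablated males at 30 °C, and 0.114, 0.197 and 0 CPM in control males at 22 °C and 1.74 and 20.7 CPM in control males at 30 °C. Ablated males overlapped between the temperatures, and control males did not. Female values overlapped, at 285 to 473 CPM at 22 °C and 241 to 380 CPM at 30 °C, and as a group were not lower at 22 °C. The log2 fold change averaged over the sexes was -2.63 ± 0.49 (SE, adjusted p = 0.0307), and a test of this effect between the sexes was not made. It was called in 15 of 24 fits that left out 1 library. Its highest adjusted p in the other 9 fits was 0.0682; these left out 22 °C ablated males 1 and 2, 22 °C control males 1 and 3, 22 °C ablated females 2 and 3, 22 °C control female 3, 30 °C ablated female 3 or 30 °C control female 4.

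Cyp3a13, a Cyp3a gene apart from the main cluster, averaged 60.9 ± 12.3 CPM at 22 °C and 94.3 ± 42.1 CPM at 30 °C (SD, n = 12 each), log2 fold change -0.56 ± 0.12 (SE, adjusted p = 0.0374). Its highest value, 217 CPM, was in 30 °C ablated female 3, without which it was not called. In all, 13 of 24 fits that left out 1 library lost it, with adjusted p up to 0.181; they left out the 9 libraries just named, 30 °C ablated male 3, 30 °C control females 2 and 3 or 30 °C control male 1. Cyp2c68 averaged 191 ± 98.7 CPM at 22 °C and 289 ± 128 CPM at 30 °C (SD, n = 12 each), log2 fold change -0.48 ± 0.12 (SE, adjusted p = 0.0476), and was called in 4 of 24 such fits, those without 22 °C control female 1, 30 °C ablated male 2, 30 °C control female 1 or 30 °C control male 2, with adjusted p up to 0.274 in the others. Cyp2c68, which shares windows with Cyp2c40, is subject to the uncertainty given above.

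Genotype and line moved with temperature, since all mice at 22 °C and 7 of 12 at 30 °C were Ai39 x BAC-AT1A-Cre. Within that cross, where 0.104% of all genes were called, Cyp2b9 was the 1 member called (log2 fold change -3.17 ± 0.18, SE, adjusted p = 6.85e-11), and Cyp2c23 was not (-0.39 ± 0.12, SE, adjusted p = 0.299). That fit had 1 ablated and 1 control male at 30 °C, assumed to vary like the other groups. Their Cyp2b9 values, 90.6 and 20.7 CPM, were the highest of their groups at 30 °C. With a term for Cre, 0 members were called (Cyp2c23 adjusted p = 0.0524), and 0.0% of all genes. Without 30 °C control male 2 there were 14 calls, where 8.74% of all genes were called, and without 30 °C control female 1 there were 9, where 1.63% were. The 13 libraries whose loss ended the call of Cyp3a13 each left 1 or 2 calls.

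**Figure D5:**
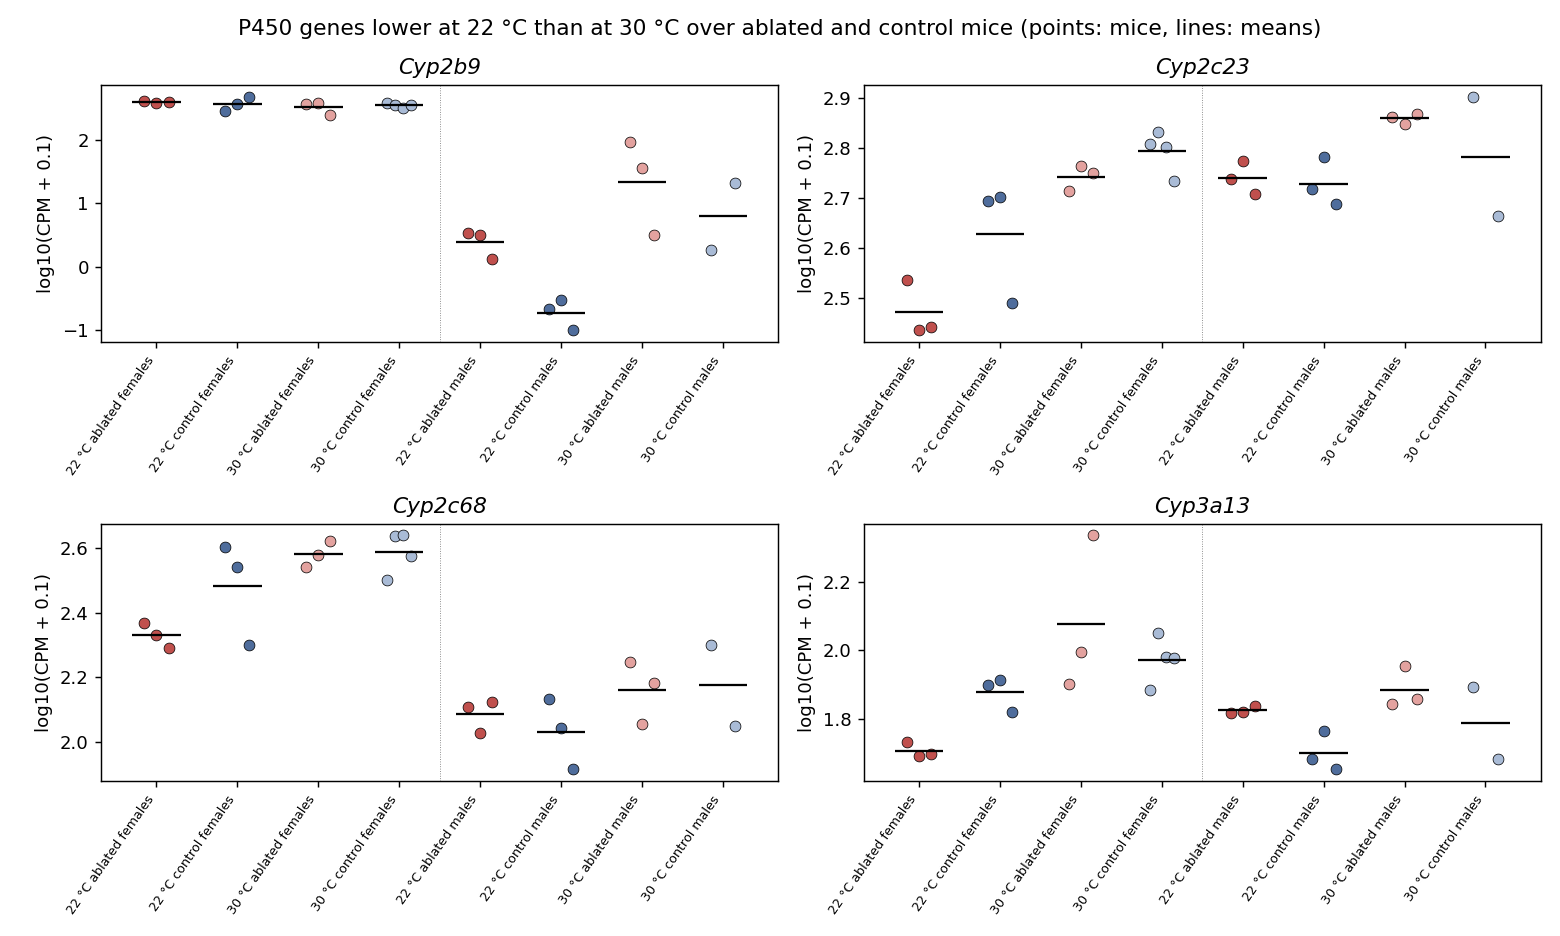
Level in each mouse of the 4 P450 genes called for temperature, as log10(CPM + 0.1), with females left and males right of the dotted line, ablated mice left of controls at each temperature, and horizontal lines at group means of the log values. Cyp2c23 is lower at 22 °C than at 30 °C in both sexes of ablated mice and in control females, with no overlap. For Cyp2b9, control males do not overlap between the temperatures, and ablated males and females do.

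Split by ablation, the temperature comparison gave no call in either arm (0.0346% of all genes in each). In ablated mice, 17 members had an unadjusted p under 0.05, all lower at 22 °C, against 4.76% of all genes, and DESeq2 called 8 (0.782% of all genes). In controls 6 did, also all lower, against 4.57% of all genes, and DESeq2 called 1 (0.989% of all genes). In ablated mice, 5 members (Cyp2c23, Cyp2c40, Cyp2c50, Cyp2c54 and Cyp3a13) were lower at 22 °C without overlap within either sex, against 0.866% of all genes. Cyp2c54 came closest, with 82.5 ± 55.5 CPM in ablated mice at 22 °C and 395 ± 208 CPM at 30 °C (SD, n = 6 each), log2 fold change -2.29 ± 0.43 (SE, adjusted p = 0.0576). In controls the lowest p belonged to Cyp2b9 (log2 fold change -3.33 ± 0.80, SE, adjusted p = 0.147), and Cyp2a4 (-1.98 ± 0.71, SE, adjusted p = 0.294) was the 1 member lower without overlap, against 0.371% of all genes. The comparison of ablation at 22 °C and that of temperature in ablated mice share the 6 ablated mice at 22 °C.

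Genes that work with the P450 enzymes were looked at from lists written from general knowledge. Of 10 electron donors and haem synthesis genes, none was called for ablation, temperature or sex; Por, the P450 oxidoreductase, differed by -0.22 ± 0.16 with ablation at 22 °C (log2, SE) and Alas1, the rate-limiting enzyme of haem synthesis, by -0.82 ± 0.34. Nr1i3 had 83.2 to 118 CPM in ablated females at 22 °C and 110 to 150 CPM in control females, and 35.0, 25.6 and 32.8 CPM in ablated males and 62.5, 69.2 and 92.6 CPM in control males. The males did not overlap and the females did (log2 fold change -0.80 ± 0.19, SE, adjusted p = 0.121). Of 12 other targets of CAR and PXR, 10 were above 0 after ablation at 22 °C, with a median of 0.45 and none called, and of 4 other targets of the aryl hydrocarbon receptor 3 were, with a median of 0.25 and none called.

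Of 9 pericentral genes that are not P450, all were below 0 with ablation at 22 °C, with a median log2 fold change of -0.49 and none called; Glul, glutamine synthetase of the last cells around the central vein, was at -0.92 ± 0.25 (SE, adjusted p = 0.232). With ablation at 30 °C, 8 of the 9 were above 0, with a median of 0.05. Of 8 periportal genes, 5 were above 0 with ablation at 22 °C, with a median of 0.13. None of the differences in these lists passed the test for ablation or temperature.

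Markers of other cells moved beside these values. The 5 stellate cell and fibroblast markers were all above 0 with ablation at 22 °C (median log2 fold change 0.59, none called), with summed levels of 102 to 169 CPM in ablated females against 68.2 to 117 CPM in control females, and 141 to 268 CPM in ablated males against 97.7 to 141 CPM in control males. The 4 Kupffer cell markers summed to 188 to 223 CPM in ablated females and 132 to 149 CPM in control females at 22 °C, and to 55.2 to 147 CPM in ablated males and 110 to 143 CPM in control males. In ablated mice at 30 °C the stellate markers summed to 31.3 to 117 CPM in females and 55.8 to 168 CPM in males, and all 5 were above 0 at 22 °C over 30 °C in ablated mice (median 1.03, none called). With ablation at 22 °C, 3 of 4 endothelial, 4 of 4 cholangiocyte, 3 of 3 lymphocyte and 1 of 3 erythroid markers were above 0, none called. No marker was at 0 in a whole group. With ablation at 22 °C, 2 of 5 hepatocyte markers were above 0 (median log2 fold change -0.18, none called). Their sums were 72250 to 73440 CPM in ablated females and 62100 to 96980 CPM in control females. In males they were 69960 to 95550 CPM with ablation and 61680 to 78090 CPM without. In bulk liver, fewer hepatocytes and less RNA per hepatocyte cannot be told apart, and the part of other cells in the P450 values was not tested.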

How the data were processed

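Liver RNA of 24 mice, 1 library each, was poly-A selected, per the labels' protocols. Per the submitters' processing notes, CASAVA, HISAT2, GRCm39 (mm39) and DESeq2 were used; the sources used here give no versions, read counter, annotation release, strandedness or handling of multiply mapping reads. Raw read counts per gene are as deposited. The authors' FPKM were found to equal counts scaled to gene length and to an effective library size, 1 size factor per library over all 24 libraries. The authors' signal columns hold counts over a size factor set within each table, and the authors' gene length is in bases, an other kind of value; both served to check units.

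The 3 tables (25892, 25229 and 25027 genes) were joined on gene ID to 27802 genes; 0 counts differed between tables for shared libraries, and 40326 absent values were set to 0. The filter on low counts, filterByExpr, kept 20213 genes. The 8 groups of temperature, ablation and sex were fitted in edgeR 4.0.16 (R 4.3.3) with TMM scaling and the robust quasi-likelihood test, with 16 residual degrees of freedom. Contrasts averaged the sexes with equal weight, tests were two-sided, and p was adjusted by Benjamini-Hochberg over all genes. Called means an adjusted p under 0.05. CPM are counts scaled to the TMM-adjusted library size. Each SE was derived from its F statistic and fold change. Depth was 21691653 to 34851108 reads in genes. The labels do not say whether the mice of a group share a litter. Each p-value sets a difference against the spread between these mice, moderated towards a trend over all genes (median prior degrees of freedom 15.1).

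Members are named by these rules: all called in a comparison (over 8 in 1 direction, the 6 with the largest fold change), the 3 of lowest p where under 3 were called, the 10 of highest median FPKM, and a list of P450 genes known from the literature of the field. The order of levels is given by sex, a choice made after seeing the data. Other genes in the text are given as neighbours, subfamily members or list members. Members, gene lists and tests were chosen with earlier results of these data known. The alternatives were DESeq2 1.42.0, its size factors, no filter, a replicate block, a Cre term, Ai39 x BAC-AT1A-Cre mice only, only the groups compared, and each library left out. The comparison of the sexes in ablated mice, with its alternatives, was chosen after seeing the data. Scripts were tested on simulated data. Windows of 100 bases were counted in GENCODE vM21 transcripts (GRCm38) for the 52 members listed there; promoters came from RefSeq (GRCm38.p6) for 45 members.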

Additional observations from a re-analysis of the deposited data

Results flagged for a closer look

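Of the members named by the rules above, 39 had values that varied among the 4 control females at 30 °C, the only group of 4. Of these 39, 3 had 1 library far from the others. Chance alone flags about 1 in 20 groups. Cyp2r1 had 3.34 CPM in 30 °C control female 1 and 7.08 to 7.56 CPM in the other 3. Cyp3a41a had 5.93 CPM in the same library and 27.3 to 30.5 CPM in the others. Cyp3a25 had 1129 CPM in 30 °C control female 2 and 891 to 930 CPM in the others.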

How the results depend on the processing

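The number of members called for ablation or temperature depended on the tool and the filter. DESeq2 called 4 for ablation at 22 °C (0.643% of all genes), 1 for ablation averaged over temperatures (0.569%), 1 for temperature in controls (0.989%), 8 for temperature in ablated mice (0.782%) and 12 for temperature averaged (3.15%). Without a low-count filter the counts were 12 for ablation at 22 °C (1.44% of all genes), 2 at 30 °C (0.266%) and 9 averaged (1.09%); 6 for temperature in controls (0.982%), 16 in ablated mice (1.77%) and 17 averaged (3.2%); 10 for ablation by temperature (0.687%); and 8 and 6 for ablation by sex at 22 °C (0.896%) and 30 °C (0.352%). That fit gave an infinite prior degrees of freedom, so each gene took its spread from the trend and not from its own mice, where the filtered fit had a median of 15.1; its counts are therefore no sign of more differences. A fit of only the groups compared gave 1 for ablation at 22 °C (0.278%), 2 for temperature in ablated mice (0.292%) and 1 for ablation by sex at 22 °C (0.238%). Ai39 x BAC-AT1A-Cre mice alone gave 1 for ablation averaged (0.0316%), and 1 each for temperature in controls (0.0135%), in ablated mice (0.0452%) and averaged (0.104%). A Cre term gave 0 for temperature averaged (0.0%) and 16 for sex in controls (1.1%). The cause of the other differences was not tested.

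The labels do not say what a replicate number shares, and same-numbered mice did not deviate together. Over 77 pairs of same-numbered libraries of different groups the correlation ran from -0.263 to 0.191, with 10 over 0.1. Over 174 pairs with other numbers it ran from -0.22 to 0.242, with 26 over 0.1. With the replicate block, 1 member (Cyp2c23) was called for temperature averaged in place of 4. Of all 20213 genes, 30 were called there in place of 148. The block gave 18 for sex in controls (435 of all genes) and 22 for sex in ablated mice (426 of all genes). It gave 0 for the other comparisons, where 0 to 17 of all genes were called.

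Leaving out 1 library at a time gave 0 to 1 calls for ablation at 22 °C, 0 to 1 at 30 °C, 0 to 2 averaged; 0 to 3 for temperature in controls, 0 to 2 in ablated mice and 1 to 14 averaged; 0 to 0 for ablation by temperature; 0 to 0 and 0 to 1 for ablation by sex at 22 °C and 30 °C; 15 to 22 for sex in controls and 20 to 23 in ablated mice. The highest values of 1, 2, 3, 14 and 22 for ablation at 30 °C, ablation averaged, temperature in controls, temperature averaged and sex in controls came without 30 °C control male 2. In that fit 8.74% of all genes were called for temperature averaged. The lowest value for sex in controls came without 30 °C control male 1. Shares over all genes for the other ranges are not given here. Of 7402 recomputed values of named members, 7202 kept their side of the threshold, 82 lost and 118 gained a call. Of values called in either fit, 0 reversed direction. Uncalled values that changed sign count among the 7202. With 2 to 4 mice a group, differences under the spread between mice could not be detected.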
